A study of Homo sapiens with 9 samples.

Results

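MYB, CXCR4, NOTCH3, FOXP1, GAB1, ZEB1, VEGFA, AKT2, SP1 and ADRB1 are 10 genes that have been reported as direct targets of the microRNA miR-150-5p. They were taken by symbol from the platform's table of probesets and genes, as 10 of 14884 named genes, and each is measured by 1 probeset. The cells were ZR-75-1, a long-established human breast cancer line that expresses the estrogen receptor, sampled 48 h after transfection. The 3 groups of 3 arrays were cells given the lipid reagent Lipofectamine RNAiMAX and either a mimic of miR-150-5p, a non-specific negative control RNA (both at 50 nM), or no RNA (mock). All groups therefore share the cell line and the lipid reagent. The study asked what restoring this microRNA does in such a line. The labels describe triplicates but not separate cultures or days, so every p-value rests on the scatter among these arrays, which may be partly technical.

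A microRNA guides the silencing complex to messenger RNAs whose 3′ untranslated regions pair with its seed, the bases from position 2 to 8 of the mature strand. The complex blocks translation and speeds decay of the message, so an effective target usually shows some loss of messenger RNA, while loss of protein can be larger. miR-150 is best known from mature lymphocytes, where the transcription factor MYB is its classical target. The arrays measured messenger RNA only, and protein is not analysed here.

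Every value below is a log2 intensity as deposited, where a difference of 1 is a change by a factor of 2. The median probeset read 4.22 to 4.27 depending on the array. The mean of 9 of the 10 targets over the 9 arrays was above the median of all named genes (5.44), and ZEB1 (2.87) lay below it. All 8 luminal breast markers fixed for the check of the cell type, ESR1, GATA3 and KRT18 among them, were above that median. All 4 measured fibroblast and endothelial markers were below it, as were 2 of 3 measured lymphocyte markers (CD8A, at 5.82, was above), and the defining lymphocyte genes PTPRC, CD3D and CD3E were not analysed here. The probeset of MIR150, the microRNA's own gene, averaged 4.06 ± 0.37 in the 3 mock arrays (SD), 4.09 ± 0.14 with the negative control and 4.20 ± 0.26 with the mimic, so it does not check the labels, and no source used here says that it detects the transfected strand. The first principal component placed the mimic arrays (6.62 to 15.6) apart from the 6 control arrays (-9.74 to -0.41), and on the second, mimic replicates 1 and 3 lay at opposite ends (11.7 and -16.9).

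None of the 10 targets passed the test in any comparison. Against the negative control, 0 of 10 had an adjusted p under 0.05 in limma's test with Benjamini-Hochberg adjustment over all genes, where 0.551% of all genes passed (82 of 14884) and 0.349% passed as lower. No target had an unadjusted p under 0.05 either, against 12.6% of all genes. In 8 of 10 the log2 change was negative, against 46.5% of all genes, and the median over the targets was -0.099 (0.011 over all genes). No target had its 3 mimic values below its 3 negative control values, which 8.01% of all genes had. The lowest adjusted p among the targets was 0.570, for ZEB1. The count over all genes depended on single arrays: it was 7 without mimic replicate 1, between 10 and 39 without any other 1 array but mock replicate 3, and 121 without mock replicate 3.

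**Figure D1:**
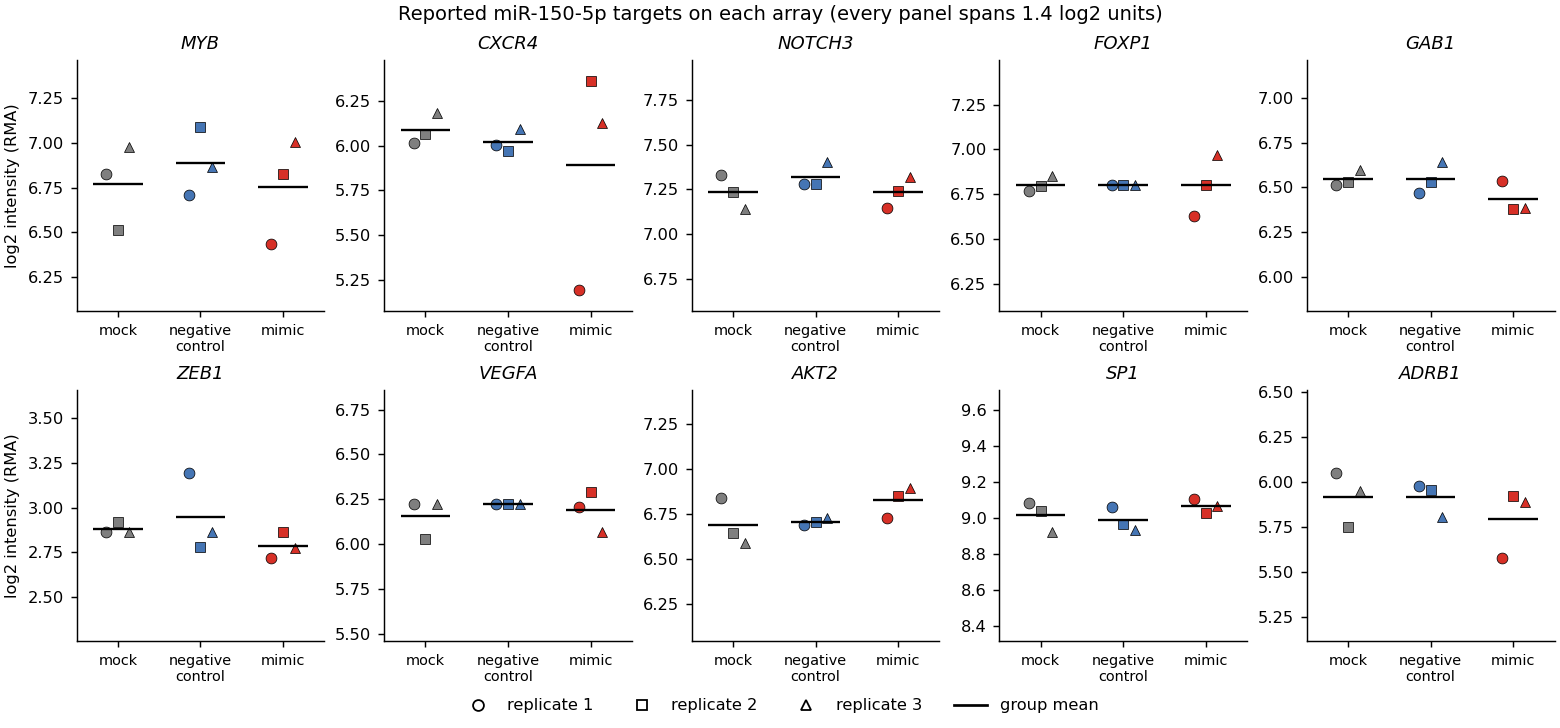
Log2 intensity of the 10 targets on each array (vertical axis, every panel spanning 1.4 log2 units) in mock, negative control and mimic cells (horizontal axis). Marker shape gives the replicate number and the bar the group mean; the groups overlap in all panels except for AKT2 in mimic against negative control, and the lowest CXCR4, MYB, FOXP1, ZEB1 and ADRB1 values are all in mimic replicate 1.

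Among the transcription factors, MYB, which maintains progenitor cells and is estrogen-responsive in breast cancer lines, was the most variable. Its values were 6.82, 6.51 and 6.98 in mock, 6.71, 7.09 and 6.86 in negative control and 6.44, 6.83 and 7.01 in mimic replicates 1, 2 and 3. The mimic arrays thus held the lowest and the second highest of the 9 values, and the groups overlapped. The change against the negative control was -0.13 ± 0.17 (SE, n = 3 arrays per group; limma adjusted p = 0.795), with a 95% interval from -0.50 to 0.25. The lower end of this interval is a fall of 29.5%. Against mock the change was -0.017 ± 0.17 (adjusted p = 0.980), and the negative control differed from mock by 0.11 ± 0.17, a size close to that of mimic against negative control. The spread of MYB within groups was larger than that of 91.6% of all genes.

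FOXP1, a forkhead transcription factor, had the smallest difference between the group means of the 10 targets. It read 6.77, 6.79 and 6.85 in mock, 6.80 on all 3 negative control arrays, and 6.63, 6.80 and 6.97 in the mimic arrays. The mimic arrays surrounded both control groups. The change was -0.0028 ± 0.087 against the negative control (adjusted p = 0.994), with an interval from -0.20 to 0.19, and -0.0044 ± 0.087 against mock (adjusted p = 0.990). A fall of 12.8% is the largest inside the interval against the negative control.

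ZEB1 represses CDH1 and other epithelial genes and drives epithelial-mesenchymal transition. Its probeset was dim, brighter than 8.9% of all genes, as is usual for ZEB1 in luminal cells, and whether it stood above background was not measured. The values were 2.86, 2.92 and 2.86 in mock, 3.19, 2.78 and 2.86 in negative control and 2.72, 2.86 and 2.77 in mimic. Apart from negative control replicate 1, all lay within 2.72 and 2.92. The change was -0.16 ± 0.10 against the negative control, with an interval from -0.39 to 0.073, and -0.096 ± 0.10 against mock (adjusted p = 0.776). Without negative control replicate 1 the change against the negative control was -0.036 and the lower end of its interval a fall of 13.7%. Intensities this low compress fold changes, so the lower end of the interval with all arrays, a fall of 23.9%, describes the array signal only.

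SP1, a widely expressed factor that binds GC-rich promoters, was the brightest of the 10 on the array. Its values were 9.09, 9.04 and 8.92 in mock, 9.06, 8.97 and 8.93 in negative control and 9.11, 9.03 and 9.07 in mimic, so the mimic arrays were in the upper part of an overlapping range. The change was 0.080 ± 0.071 against the negative control (adjusted p = 0.688) and 0.051 ± 0.071 against mock (adjusted p = 0.822). The interval against the negative control ran from -0.080 to 0.24, whose lower end is a fall of 5.38%. That limit was 8.26% without negative control replicate 2 and 8.97% without negative control replicate 3.

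Among the receptors and ligands, CXCR4, the receptor of the chemokine CXCL12, varied most. It read 6.02, 6.06 and 6.18 in mock and 6.001, 5.97 and 6.09 in negative control, and 5.19, 6.36 and 6.13 in mimic replicates 1, 2 and 3. Mimic replicate 1 was the lowest of all 9 arrays and mimic replicate 2 the highest. The change was -0.13 ± 0.24 against the negative control (adjusted p = 0.867) and -0.19 ± 0.24 against mock (adjusted p = 0.805). The interval against the negative control, from -0.67 to 0.41, was the widest of the 10, and its lower end is a fall of 37.0%. The SD was 0.62 in mimic against 0.085 in mock and 0.063 in negative control. Without mimic replicate 1 the change against the negative control was 0.22 ± 0.093 (adjusted p = 0.397), and the interval then held no fall.

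NOTCH3 is a Notch receptor that is cleaved on ligand binding to release a transcriptional activator. It read 7.33, 7.23 and 7.14 in mock, 7.28, 7.28 and 7.40 in negative control and 7.15, 7.24 and 7.32 in mimic. The mimic values lay inside the mock range, and the negative control stood slightly above. The change was -0.084 ± 0.079 against the negative control (interval from -0.26 to 0.093) and 0.0018 ± 0.079 against mock, with adjusted p = 0.704 and 0.997. The negative control differed from mock by 0.086 ± 0.079.

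ADRB1, the beta-1 adrenergic receptor, read 6.05, 5.75 and 5.95 in mock, 5.98, 5.96 and 5.81 in negative control and 5.58, 5.92 and 5.89 in mimic. Mimic replicate 1 was again the lowest array, and the other mimic arrays lay inside the control range. The changes were -0.12 ± 0.11 against either control (adjusted p = 0.702 and 0.731), with an interval from -0.37 to 0.13 against the negative control. Without mimic replicate 1 they were -0.012 and -0.015.

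VEGFA, the growth factor that drives vessel growth, read 6.22, 6.03 and 6.22 in mock, 6.22 on all 3 negative control arrays and 6.21, 6.29 and 6.07 in mimic. The change was -0.032 ± 0.082 against the negative control (interval from -0.22 to 0.15, adjusted p = 0.903) and 0.031 ± 0.082 against mock (adjusted p = 0.913). The lower ends of the intervals are falls of 13.9% and 10.0%, the second being 6.45% without mimic replicate 3. The sign thus depended on the control.

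The signalling proteins inside the cell are GAB1 and AKT2. GAB1, a docking adaptor that links receptor tyrosine kinases to PI3 kinase and SHP2, was the target with a negative change whose size was most alike against both controls. It read 6.51, 6.53 and 6.60 in mock, 6.47, 6.53 and 6.64 in negative control and 6.53, 6.38 and 6.38 in mimic. Mimic replicates 2 and 3 were below all 6 control arrays, and mimic replicate 1 was among them. The change was -0.11 ± 0.075 against each control (adjusted p = 0.579 and 0.631), with intervals from -0.28 to 0.055 in both. A fall of 17.8% is the largest inside them. GAB1 kept its negative sign in each of 17 alternative analyses per control, and it passed in none. Several of these alter only the SE or the adjustment, so the change could not move in them. ADRB1 also kept its negative sign in each of 17 per control, and ZEB1 in each of 16.

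AKT2, a kinase of the PI3 kinase pathway, was the only target whose arrays did not overlap between mimic and negative control, and it was higher, which 8.42% of all genes were in this way. It read 6.84, 6.64 and 6.59 in mock, 6.69, 6.70 and 6.73 in negative control and 6.73, 6.85 and 6.90 in mimic. The closest mimic and negative control arrays both round to 6.73, and mock replicate 1 lay between the mimic values. The change was 0.12 ± 0.082 against the negative control (adjusted p = 0.596) and 0.13 ± 0.082 against mock (adjusted p = 0.601). The intervals ran from -0.067 to 0.30 and from -0.050 to 0.32, so the largest falls inside them were 4.51% and 3.41%, the smallest of the 10 with all arrays. These limits depended on single arrays. Against the negative control the limit was 2.10% without mimic replicate 1 and 2.99% without mock replicate 1, and 7.70%, 8.23%, 7.39% and 7.22% without mimic replicate 2, mimic replicate 3, negative control replicate 1 and negative control replicate 2. Against mock it was 0.978% without mimic replicate 1 and 6.64% to 7.53% without mimic replicate 2 or 3 or mock replicate 2 or 3, and without mock replicate 1 the interval held no fall.

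Against mock, 0 of 10 targets passed, where 0.302% of all genes passed (45 of 14884), and none had an unadjusted p under 0.05 (10.7% of all genes). The log2 change was negative for 6 of 10 targets and 46.1% of all genes, with a median of -0.011 over the targets. No target was without overlap between its mimic and mock arrays, which 12.7% of all genes were. Both comparisons of the mimic share the 3 mimic arrays, so their values are given side by side and are not independent.

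Between the negative control and mock, 0 of 10 targets passed and 0% of all genes did in limma's test, with 0 targets and 4.18% of all genes (622) at an unadjusted p under 0.05. The changes were negative for 5 targets (47.1% of all genes) and positive for 5, from -0.066 (CXCR4) to 0.11 (MYB). No target was without overlap, against 8.1% of all genes. Those of mimic against negative control ran from -0.16 (ZEB1) to 0.12 (AKT2); the comparisons share the 3 negative control arrays.

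**Figure D2:**
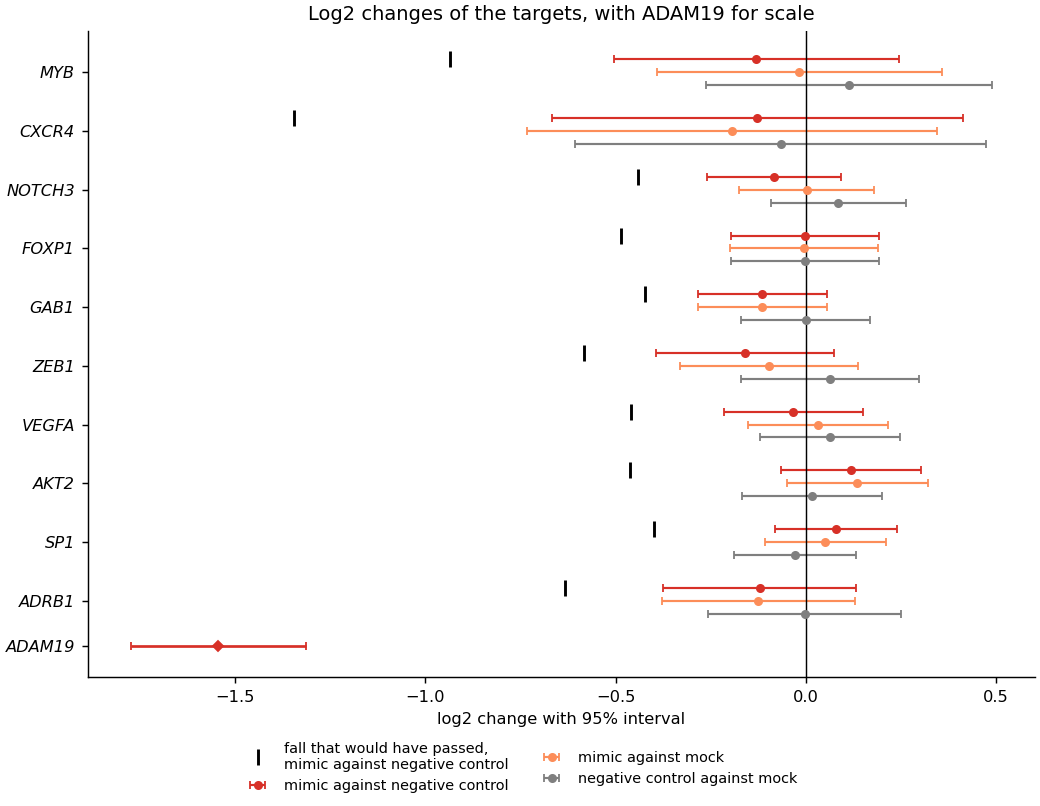
Log2 change (horizontal axis) of the 10 targets with 95% intervals in 3 comparisons, and of ADAM19 in mimic against negative control. All intervals of the targets include 0; black ticks mark the fall each would have needed to pass the threshold, from -0.40 for SP1 to -1.35 for CXCR4.

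The intervals give the size of fall that the arrays can and cannot speak to. Against the negative control the lower ends were falls of 4.51% for AKT2, 5.38% for SP1, 12.8% for FOXP1, 13.9% for VEGFA, 16.5% for NOTCH3, 17.8% for GAB1, 22.9% for ADRB1, 23.9% for ZEB1, 29.5% for MYB and 37.0% for CXCR4. Taken 1 gene at a time, a fall by 30% thus lay outside the interval of 9 targets, and a fall by 50% outside that of all 10. For MYB the first held narrowly: with 1 array left out its limit lay between 20.2% and 36.4%. This is ordinary precision for the table: the limit was under 30% for 91.4% of all genes. For scale, ADAM19, picked as the gene with the lowest p, fell by 65.7% (log2 change -1.54 ± 0.10, 95% interval from -1.77 to -1.31). No target's interval reached that of ADAM19, whose smallest fall was 59.7%. Few genes could: the limit was over 50% for 0.477% of all genes.

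Against mock the lower ends ranged from 3.41% (AKT2) to 39.8% (CXCR4), with 23.8% for MYB. Against the mean of both controls, which uses all 6 control arrays and is not independent of the other comparisons, they ranged from 2.30% (AKT2) to 35.3% (CXCR4), with 24.1% for MYB. In that comparison 0 of 10 targets passed, where 1.1% of all genes did, and 0 had an unadjusted p under 0.05 (13.5% of all genes). The change was negative for 8 of 10 (46.1% of all genes), and no target was without overlap between the mimic and all 6 control arrays (7.68% of all genes). Held over the 10 targets together, the limits against the negative control widened to 11.6% for SP1, 40.0% for MYB and 50.0% for CXCR4. They were 30.8% for ADRB1 and 31.1% for ZEB1, so a fall by 30% then lay inside the intervals of ADRB1, ZEB1, MYB and CXCR4. Against mock the limit of CXCR4 was then 52.2%.

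A called fall had to be larger than these limits. With its SE and the largest p that passed against the negative control (0.000271), SP1 would have had to fall by 24.1%, GAB1 by 25.3%, NOTCH3 by 26.4%, VEGFA by 27.2%, FOXP1 by 28.5%, MYB by 47.7% and CXCR4 by 60.6%. The 52 genes that did pass as lower fell by 22.9% to 65.7%, with a median of 32.8%. Their number was 86 with renewed quantile normalization, 80 with centring on array medians, 11 with the replicate block and 7 with only the arrays of both groups. The median is of genes selected for passing, so falls too small to pass are missing from it and a typical fall may be smaller. A fall of that median size would have reached the threshold in SP1, GAB1, NOTCH3, VEGFA, AKT2 and FOXP1, and not in MYB, CXCR4, ADRB1 (35.5%) or ZEB1 (33.2%).

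The sign of several changes depended on single arrays. Mimic replicate 1 held the lowest of the 9 values for 5 of 10 targets, MYB, CXCR4, FOXP1, ZEB1 and ADRB1, where it was the lowest array for 16.6% of all genes. Without it, 5 targets in place of 8 had a negative change against the negative control and 3 in place of 6 against mock. MYB (0.031), CXCR4 (0.22) and FOXP1 (0.082) turned positive against the negative control. Leaving out the mimic array with a gene's lowest value raises its change by construction. In the other direction, MYB was -0.25 and FOXP1 -0.086 without mimic replicate 3, and CXCR4 was -0.36 without mimic replicate 2. Mimic replicate 3 held the highest value for 2 of 10 targets and 21.6% of all genes. No single array left out made a target pass. Without mimic replicate 1, the largest falls inside the intervals against the negative control were 20.2% for MYB, 5.89% for FOXP1, 15.7% for ADRB1, 14.7% for NOTCH3 and 2.10% for AKT2, all smaller than with all arrays. They were larger for GAB1 (20.8%, with a change of -0.16), SP1 (7.95%), VEGFA (16.2%) and ZEB1 (24.2%). Against mock the limit of MYB was 13.7% without this array. Without that array 7 of 14884 genes passed against the negative control. This array also lay at the edge of both principal components; the part of this in the targets' values was not tested.

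**Figure D3:**
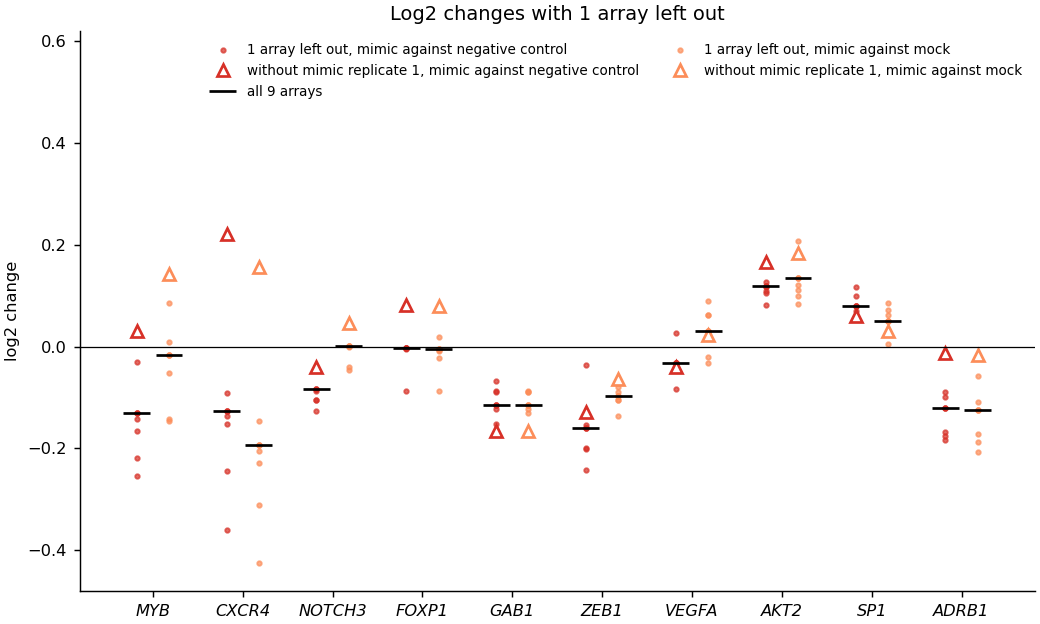
Log2 change (vertical axis) of each target against the negative control (left of each pair) and against mock (right), with all 9 arrays (black bars) and with 1 array left out (points). Open triangles are without mimic replicate 1, which move MYB, CXCR4 and FOXP1 above 0, while GAB1, ZEB1 and ADRB1 stay below and AKT2 and SP1 above 0 throughout.

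Several targets carry the same value on more than 1 array. VEGFA held the identical value (6.22106) on 5 of 9 arrays, mock replicates 1 and 3 and all negative control arrays. FOXP1 held 6.80216 on 4 arrays, all negative controls and mimic replicate 2, and ZEB1 held 2.86323 on 4 arrays. NOTCH3 and GAB1 each repeated a value on 2 arrays. Such repeats are common in the table: 57.1% of all genes repeated a value on at least 2 arrays and 16.3% on at least 4. The intervals of VEGFA and FOXP1 thus rest on fewer distinct readings than those of MYB or CXCR4; the part of these repeats in the spread was not tested.

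Relatives of the targets were read out in the same way. Of 23 listed paralogs 20 were measured. Of these, 0 rose and 0 fell against either control, where 0.551% (negative control) and 0.302% (mock) of all genes passed. The change against the negative control was negative for 9 (46.5% of all genes), with a median of 0.014 (0.011 over all genes). The lowest p belonged to NOTCH2, a second Notch receptor, which read 9.96 to 10.0 in negative control, 9.84 to 9.96 in mock and 9.71 to 9.82 in mimic. Its mimic arrays lay below all 6 control arrays, and 7.68% of all genes were separated like this in either direction. The change was -0.20 ± 0.066 (adjusted p = 0.251) against the negative control and -0.11 ± 0.066 (adjusted p = 0.579) against mock. FOXP2, a forkhead relative of FOXP1, had -0.25 ± 0.11 (adjusted p = 0.392) against the negative control and -0.13 ± 0.11 (adjusted p = 0.698) against mock.

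Of 12 further genes that have been reported as miR-150 targets, 7 were measured. Of these, 0 passed in either direction against the negative control (0.551% of all genes) or mock (0.302%). Their median against the negative control was -0.018. The change was negative in 6 of 7 against the negative control (46.5% of all genes) and in 3 of 7 against mock (46.1%), where the median was 0.0071. The lowest p against the negative control was that of SRCIN1, an inhibitor of SRC kinase signalling (-0.18 ± 0.11, adjusted p = 0.532). Against mock SRCIN1 had -0.088 ± 0.11 (adjusted p = 0.806).

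**Figure D4:**
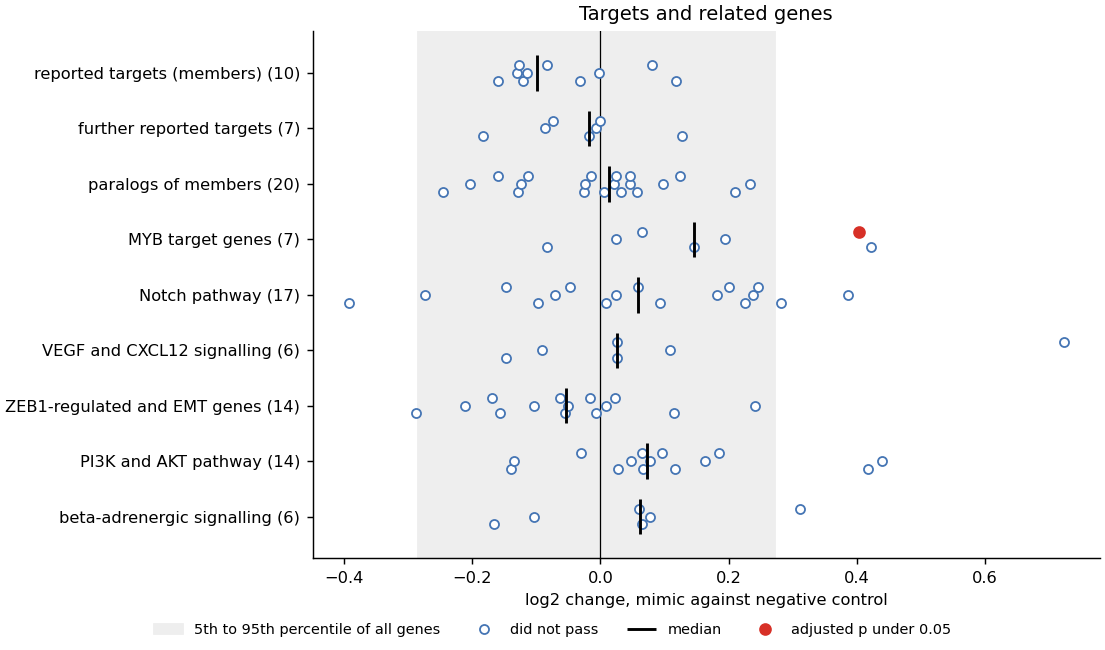
Log2 change of mimic against negative control (horizontal axis) for the 10 targets and for 8 lists of related genes, with the number measured in brackets and the median of each list as a bar. The grey band spans the 5th to the 95th percentile of all genes (-0.29 to 0.27); every target lies inside it, and BCL2 is the only gene shown that passed.

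Genes downstream of the targets, from lists made for each, were also read out. The counts below are of the genes measured. These were 7 of 8 listed MYB target genes, 17 of 19 for the Notch pathway and 6 of 7 for VEGF and CXCL12 signalling. They were 14 of 16 for ZEB1 or epithelial-mesenchymal transition, 14 of 24 for PI3 kinase and AKT, and 6 of 15 for beta-adrenergic signalling. Of all genes 0.551% passed against the negative control and 0.302% against mock, so a count of 0 in lists this short says little about them. Of 7 measured MYB target genes 1 rose and 0 fell against the negative control. The one was BCL2, an inhibitor of apoptosis that MYB activates and that is also estrogen-induced. It read 9.49 to 9.58 in mock, 9.45 to 9.55 in negative control and 9.85 to 9.98 in mimic. The mimic arrays did not overlap the 6 control arrays, as in 7.68% of all genes in either direction. It rose by 0.40 ± 0.067 (adjusted p = 0.0396) against the negative control, and against mock it had 0.37 ± 0.067 (adjusted p = 0.0767). The call was fragile: it held in 1 of 9 fits with 1 array left out, that without mock replicate 3. The other 8 had an adjusted p of up to 0.168. Over 17 alternative analyses the change against the negative control was between 0.37 and 0.43, and 5 passed. Several of these alter only the SE or the adjustment, so the size could not move in them. Against the mean of both controls BCL2 rose by 0.39 ± 0.058 (limma adjusted p = 0.0189). The list's median was 0.15, against 0.011 over all genes.

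Of 17 Notch pathway genes 0 passed. RBPJ, the DNA-binding partner of cleaved Notch, had 0.39 ± 0.091 against the negative control (adjusted p = 0.106) and 0.21 ± 0.091 against mock (adjusted p = 0.454). Its mimic values (6.47, 6.63 and 6.52) were above all control values (6.04 to 6.42), and 7.68% of all genes were separated like this in either direction. Over 17 alternative analyses the adjusted p against the negative control ranged from 0.0394, where only genes above the median level were tested and it passed, to 0.293. ADAM10, a protease that cleaves Notch receptors, had 0.28 ± 0.088 (adjusted p = 0.232) against the negative control and 0.18 ± 0.088 (adjusted p = 0.514) against mock.

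Of 6 genes of VEGF and CXCL12 signalling 0 passed against either control. CXCL12, the ligand of CXCR4, read 6.38, 6.06 and 6.45 in mock, 6.26, 6.24 and 6.45 in negative control and 7.32, 7.03 and 6.76 in mimic. All 3 mimic arrays were above all 6 control arrays. Such a separation, in either direction, was seen in 7.68% of all genes. The change was 0.72 ± 0.15 against the negative control (adjusted p = 0.0681) and 0.74 ± 0.15 against mock (adjusted p = 0.108). Neither passed with all genes tested, while against the mean of both controls CXCL12 rose by 0.73 ± 0.13 (adjusted p = 0.0350). That call held in 6 of 16 alternative analyses (adjusted p from 0.0109 to 0.130) and in 1 of 9 fits with 1 array left out, that without mimic replicate 3. Against the negative control and against mock it passed when only genes above the median level were tested (adjusted p = 0.0242 and 0.0378). Over the 17 alternative analyses of each of these 2 comparisons the adjusted p ranged from 0.0242 to 0.222 and from 0.0378 to 0.327.

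Of 14 genes regulated by ZEB1 or of epithelial-mesenchymal transition 0 passed, with a median of -0.053. The lowest p belonged to CRB3, an epithelial polarity protein (-0.21 ± 0.086, adjusted p = 0.360), and OVOL1, an epithelial transcription factor (-0.29 ± 0.13, adjusted p = 0.394). Against mock CRB3 had -0.10 ± 0.086 (adjusted p = 0.717) and OVOL1 -0.28 ± 0.13 (adjusted p = 0.478). Of 14 PI3 kinase and AKT pathway genes 0 passed, and 11 had a positive change against the negative control. The change was negative for 3, against 46.5% of all genes. IRS2, an insulin receptor substrate, had 0.42 ± 0.14 (adjusted p = 0.268) and MET, the hepatocyte growth factor receptor that signals through GAB1, 0.44 ± 0.16 (adjusted p = 0.302). Against mock they had 0.26 ± 0.14 (adjusted p = 0.548) and 0.17 ± 0.16 (adjusted p = 0.749). MET differed by -0.27 ± 0.16 between negative control and mock. Of 6 genes of beta-adrenergic signalling 0 passed. The lowest p was that of ADCY9, an adenylyl cyclase, with 0.31 ± 0.11 (adjusted p = 0.281) against the negative control and 0.45 ± 0.11 (adjusted p = 0.171) against mock.

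Of the 8 luminal markers used to check the cell type, PGR and ESR1, the progesterone and estrogen receptors, rose against the negative control (0.58 ± 0.080 and 0.46 ± 0.069, adjusted p = 0.0200 and 0.0295) and against mock (0.64 ± 0.080 and 0.45 ± 0.069, adjusted p = 0.0224 and 0.0406). With 1 array left out, PGR passed against the negative control in 4 of 9 fits and ESR1 in 1, and against mock PGR passed in 1 and ESR1 in 0. Of 3 lymphocyte and 4 fibroblast and endothelial markers 0 passed. The lowest p against the negative control were those of LCK, a lymphocyte kinase (0.17 ± 0.097, adjusted p = 0.519), and PECAM1, an endothelial adhesion molecule (0.47 ± 0.17, adjusted p = 0.301). Against mock LCK had 0.024 ± 0.097 (adjusted p = 0.942) and PECAM1 0.59 ± 0.17 (adjusted p = 0.232). The probeset of PECAM1 was dim, brighter than 8.49% of all genes, and whether it stood above background was not measured.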

How the data were processed

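Total RNA of 9 samples was measured on Affymetrix Human Gene ST arrays, 1 sample per array. The deposited log2 values were made by the authors with RMA, per the submitters' processing notes, which corrects background, equalises arrays and summarises probes; no source used here gives its version or a genome build, and no coordinates are printed. RMA equalises intensity distributions and compresses changes of dim probesets. The table has no detection calls, and the number of arrays limits the precision. Of 53617 probesets, 16098 have 1 gene symbol in the platform annotation table, none has several, and 37519 are unnamed here; the brightest probeset was used per gene (14884 genes). All 16098 identifiers matched the RefSeq table of GRCh38.p14, used for names only.

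Group means were fitted over all 9 arrays with limma 3.58.1 in R 4.3.3 (lmFit and eBayes, 6 residual degrees of freedom), with two-sided p-values adjusted by Benjamini-Hochberg over all genes at a threshold of 0.05, and 95% intervals from the moderated SE. An exact permutation test of 3 against 3 cannot go below 0.1 and was not used. The script was tested on simulated data. Alternatives were leaving out each array, other normalizations, filters, probeset choices, spread estimates, and the replicate number as a block. Named were all 10 targets and, of each list of related genes, those that passed against either control, otherwise the 1 or 2 genes with the lowest p against the negative control; the choice of 1, with the next only where its unadjusted p was under 0.05, was made after values were seen, as were ADAM19, the counts of lowest arrays and identical values, and the 30% and 50% limits. The targets and lists were chosen with earlier results of these data known.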

Additional observations from a re-analysis of the deposited data

How the results depend on the processing

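In every alternative tried, 0 targets passed in each of the 4 comparisons (limma, 0.05 after adjustment); ZEB1 gave no value where only genes above the median level were tested, and the fit of 2 groups alone cannot be made for the mean of both controls. What changed was the number of genes called overall and the sign of small differences. With 1 array left out, the number of genes called was between 7 and 121 for mimic against negative control (82 with all arrays), 1 and 10 for mimic against mock (45), and 31 and 102 for mimic against the mean of both controls (163). It was 6, 3 and 22 with every probeset tested, 263, 102 and 348 with genes above the median level, and 16, 3 and 95 with the replicate block. It was 8 and 1 when only the arrays of the 2 groups were fitted, and 169 against the negative control with a trended, robust spread. Deviations from the group means correlated with a median r of 0.057 between arrays of the same replicate number (2 of 9 pairs over 0.1) and -0.042 between arrays of different numbers (1 of 18). In both other groups, 3 of 9 arrays correlated best with their own number. Since not every same-number pair was over 0.1, the numbers were not taken to pair the samples.

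The targets with a negative change numbered between 5 and 8 against the negative control with 1 array left out, 3 and 8 against mock, 4 and 8 against the mean of both controls, and 3 and 7 for negative control against mock (2 when centred on array medians). With 1 array left out, the log2 change against the negative control spanned -0.25 to 0.031 for MYB, -0.36 to 0.22 for CXCR4, -0.086 to 0.082 for FOXP1 and -0.083 to 0.027 for VEGFA. Against mock it spanned -0.15 to 0.14 for MYB, -0.43 to 0.16 for CXCR4, -0.088 to 0.081 for FOXP1, -0.045 to 0.049 for NOTCH3, -0.032 to 0.091 for VEGFA and -0.043 to 0.13 for LCK. Against the mean of both controls it spanned -0.20 to 0.087 for MYB, -0.39 to 0.19 for CXCR4, -0.087 to 0.081 for FOXP1, -0.083 to 0.0031 for NOTCH3 and -0.052 to 0.059 for VEGFA. For negative control against mock it spanned -0.087 to 0.064 for ADRB1, -0.035 to 0.090 for AKT2, -0.020 to 0.021 for FOXP1, -0.047 to 0.038 for GAB1, -0.016 to 0.22 for MYB, -0.075 to 0.0060 for SP1 and -0.060 to 0.15 for ZEB1. Centring on array medians turned NOTCH3 against mock (-0.0071) and, for negative control against mock, ADRB1 (0.017), FOXP1 (0.019) and GAB1 (0.020). Renewed quantile normalization turned, against mock, NOTCH3 (-0.021), SP1 (-0.0062) and VEGFA (-0.0015), and AKT2 for negative control against mock (-0.0071). The cause of these sign changes was not tested.

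With 1 array left out, the largest fall inside the 95% interval lay between -0.549% (a rise) and 45.3% for CXCR4 against the negative control, 3.98% and 47.8% against mock, and 0.186% and 44.5% against the mean of both controls. For FOXP1 it lay between 5.89% and 16.4% against the negative control and 5.998% and 16.5% against mock, and for ZEB1 between 13.7% and 28.6% against the negative control. For MYB it lay between 20.2% and 36.4% against the negative control and 13.7% and 31.2% against mock. With intervals held over the 10 targets together, the limits against the negative control and against mock were 40.0% and 35.1% for MYB, 50.0% and 52.2% for CXCR4, 22.6% and 17.9% for NOTCH3, 19.7% and 19.8% for FOXP1, 23.5% and 23.6% for GAB1, 31.1% and 28.0% for ZEB1, 20.4% and 16.8% for VEGFA, 11.8% and 10.8% for AKT2, 11.6% and 13.4% for SP1, and 30.8% and 31.0% for ADRB1.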

Other observations

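The 3 genes whose values followed MYB most closely over the 9 arrays, among 7441 genes above the median level, were CEP192, which encodes a centrosomal protein (Pearson r = 0.991), TMEM87B, a membrane protein gene (r = 0.977), and ZNF26, a zinc finger gene (r = 0.971). These correlations come from 9 arrays, were chosen as the highest of many and carry no test. CEP192 read 8.08 in mimic replicate 1, where MYB was also lowest, and 8.43 in negative control replicate 2, where MYB was highest. As with MYB, its values overlapped between all 3 groups.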
